A study of Mus musculus with 28 samples.

Results

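The 9 core genes of necroptosis were followed through the healing of a mouse skin wound: Mlkl, Ripk3, Ripk1, Zbp1, Casp8, Fadd, Tlr3, Ticam1 and Tradd. They were taken by symbol from a table of 29068 genes, and all 9 were among the 18107 genes with enough counts to be tested. Total RNA from skin was sequenced in 28 libraries, 4 for each of 7 time points: day 0 and days 3, 5, 7, 10, 12 and 14 of healing. The study asked what MLKL does in skin wound healing, and sequenced wounds to look for genes of tissue repair, chiefly of programmed cell death. All 7 groups were wild type C57BL/6J mice (MLKL+/+), 8 weeks old. From day 3 on, the skin came from a punch wound on the back that healed without treatment. No group lacked a necroptosis gene. The study used mice of both sexes, and the labels do not give the sex behind each library. The labels name day 0 as the control, whereas the study's figures number the injury as day 1, and the sources used here do not state when the day 0 skin was taken relative to the wound. The design text gives 5 repeats for each day, and 4 libraries a day were analysed here. The labels do not say whether the 4 libraries of a day came from separate animals, so p-values measure the spread between these libraries, which may be technical.

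Necroptosis is a lytic form of programmed cell death that proceeds when caspase 8 is held back. MLKL is its effector: once phosphorylated by the kinase RIPK3, it assembles at the plasma membrane and breaks it. RIPK3 is engaged through a shared interaction motif (RHIM) by RIPK1, downstream of TNF receptors, by ZBP1, a sensor of Z-form nucleic acids, or by TRIF, the product of Ticam1, which is the adaptor of the RNA sensor TLR3. TRADD and FADD carry death domains, and FADD recruits caspase 8, which cuts RIPK1 and RIPK3 and so restrains this form of death. In skin the pathway is known mainly from keratinocytes that lack these restraints and become inflamed.

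In the mm10 assembly, which the submitters' processing notes name, Mlkl lies on chromosome 8 (chr8:111311255-111338479, minus strand) and Ripk3 on chromosome 14 (chr14:55784995-55788857, minus strand). Ripk1 is at chr13:34002225-34035170 (plus strand), Zbp1 at chr2:173206612-173218959 (minus strand) and Casp8 at chr1:58795233-58847503 (plus strand). Fadd is at chr7:144578323-144582441, Tlr3 at chr8:45395665-45411075, Ticam1 at chr17:56269462-56276767 and Tradd at chr8:105258575-105264594, all on the minus strand. The counts cover whole genes, and their strand setting is not given in the sources used here. In the GENCODE annotation, 241 exon bases of Ripk1 (2.89% of its exons) are shared with Serpinb6a on the other strand, a gene with 7645 to 21172 counts in a library. A further 511 exon bases of Ripk1 (6.12%) are shared with the pseudogene Gm17084 on the same strand, where strand cannot assign a read. Fadd shares 6.12% of its exon bases with the antisense gene Faddos and Tlr3 shares 7.32% with the antisense gene Gm45542. Neither these antisense genes nor the pseudogene are in the table, and reads in the antisense stretches cannot be assigned to either gene without strand.

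The promoters of Mlkl, Ripk3 and Casp8 are shown because these genes rose and fell together below. The 250 bases before a transcript start are given from RefSeq (GRCm38.p6, the same build), 5′ to 3′ on the strand of the gene, for Mlkl at chr8:111338206-111338455 (minus), Ripk3 at chr14:55788858-55789107 (minus) and Casp8 at chr1:58802252-58802501 (plus). Capitals mark a match to the core of an interferon-stimulated response element (GAAANNGAAA on either strand) or to a gamma-activated sequence (TTCNNNGAA), which are bound by interferon-activated factors. None of the 3 windows holds either. That start is the 5′ end of the gene for Ripk3, but it lies 274 bases downstream of the 5′ end for Mlkl and 7269 bases downstream for Casp8, so that the stretches before those outermost starts were not searched.
Mlkl: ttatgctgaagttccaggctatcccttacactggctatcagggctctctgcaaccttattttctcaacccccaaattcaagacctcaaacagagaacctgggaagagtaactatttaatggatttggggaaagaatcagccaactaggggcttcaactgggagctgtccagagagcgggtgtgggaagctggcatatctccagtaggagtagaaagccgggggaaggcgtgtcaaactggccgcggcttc
Ripk3: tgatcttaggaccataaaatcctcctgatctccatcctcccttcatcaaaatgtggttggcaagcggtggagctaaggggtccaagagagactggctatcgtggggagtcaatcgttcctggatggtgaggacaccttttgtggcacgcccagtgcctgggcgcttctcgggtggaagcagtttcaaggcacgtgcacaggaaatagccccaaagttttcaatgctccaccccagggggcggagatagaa
Casp8: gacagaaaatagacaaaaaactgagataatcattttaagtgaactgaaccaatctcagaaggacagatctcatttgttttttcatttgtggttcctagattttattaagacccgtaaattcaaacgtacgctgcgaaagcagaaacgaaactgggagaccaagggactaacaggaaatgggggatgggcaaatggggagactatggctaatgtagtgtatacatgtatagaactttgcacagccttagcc
Of 32851 RefSeq promoters, 2.98% hold the first core and 7.02% the other in the same window. Windows were found for 7 of the 9 members, and Zbp1 and Tradd had no entry. They lie before the 5′ end of the gene for Ripk3, Fadd and Ticam1 and before a start further in for the other members. The response element core was in none of these windows, and the gamma-activated sequence was only before the downstream start of Ripk1. The last 30 bases before that start (chr13:34002844-34002873, plus strand) hold a match in capitals that begins 11 bases before it, and a further match begins 108 bases before it.
Ripk1, downstream start: gcgggcgggacttcaaacgTTCCCGGAAat
These matches are descriptions of the letters in a window and not of binding.

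The libraries held 36706513 to 40655764 counts (median 39499595). Day 0 was the least uniform day: the SD of log2 CPM (the share of the library's counts on the log2 scale) over its 4 libraries was 0.16 at the median of the 9 members and 0.68 for Zbp1, against at most 0.19 for any member on a later day. Transcripts that mark cell types changed with time. At day 3 all 8 general leukocyte transcripts, all 8 neutrophil transcripts and all 8 macrophage transcripts were higher than at day 0, and counts of S100a9, a neutrophil granule protein, went from between 191 and 728 to between 93324 and 120236. Of 8 keratinocyte transcripts 6 were lower and 1 (Sfn) was higher at day 3, while 4 of 5 wound edge keratinocyte transcripts were higher. All 6 hair follicle and all 6 skeletal muscle transcripts were lower, and summed muscle transcripts took 17400 to 29490 CPM at day 0 and 3827 to 9903 CPM later. Over all genes, 31.8% were higher and 34.8% lower at day 3. In whole tissue, more cells of a type and more RNA per cell cannot be told apart.

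Per unit of gene length, Zbp1 and Casp8 were the most abundant of the 9 transcripts at day 0, and Tlr3 and Ripk1 the least by the deposited FPKM. Levels between genes are compared as FPKM, the count divided by gene length and library total. At day 0 Zbp1 stood at 13.7 ± 6.19 FPKM (SD, n = 4), Casp8 at 11.03 ± 0.913, Ripk3 at 4.84 ± 1.58, Mlkl at 4.06 ± 0.681 and Ripk1 at 3.02 ± 0.251. Each neighbour in the order overlapped the next by its libraries, except Casp8 and Tradd (6.71 ± 1.09). At day 3 the order was Zbp1 (35.3 ± 0.719), Casp8 (24.5 ± 1.09), Ripk3 (18.3 ± 0.89), Tradd (9.55 ± 1.00), Mlkl (9.32 ± 0.509), Ticam1 (6.58 ± 0.124), Fadd (6.27 ± 0.357), Ripk1 (4.82 ± 0.195) and Tlr3 (4.12 ± 0.328). Ripk3 thus stood above Mlkl in every library of day 3, whereas their ranges overlapped at day 0. Only Tradd with Mlkl and Ticam1 with Fadd overlapped as neighbours at day 3. By day 14 Casp8 (11.5 ± 0.478) led, and Ripk3 (5.32 ± 0.3) overlapped Ticam1 (5.19 ± 0.288). The order depends on the gene lengths behind the deposited FPKM. Ripk1 was scaled to 16571 bases, 1.99 times its 8344 annotated exon bases, and Zbp1 to 2162 bases, 0.613 times its 3529. With the annotated exon bases, an alternative chosen after seeing the data, Ripk1 was the third highest at day 0 (6.01), behind Casp8 (11.5) and Zbp1 (8.37), and Fadd (4.09) and Tlr3 (2.98) were the lowest. On that scale Casp8 led at day 3 (25.7), Zbp1 followed at 21.6, Mlkl (11.9) stood above Tradd (7.09), and Ripk1 rose to 9.56.

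**Figure D1:**
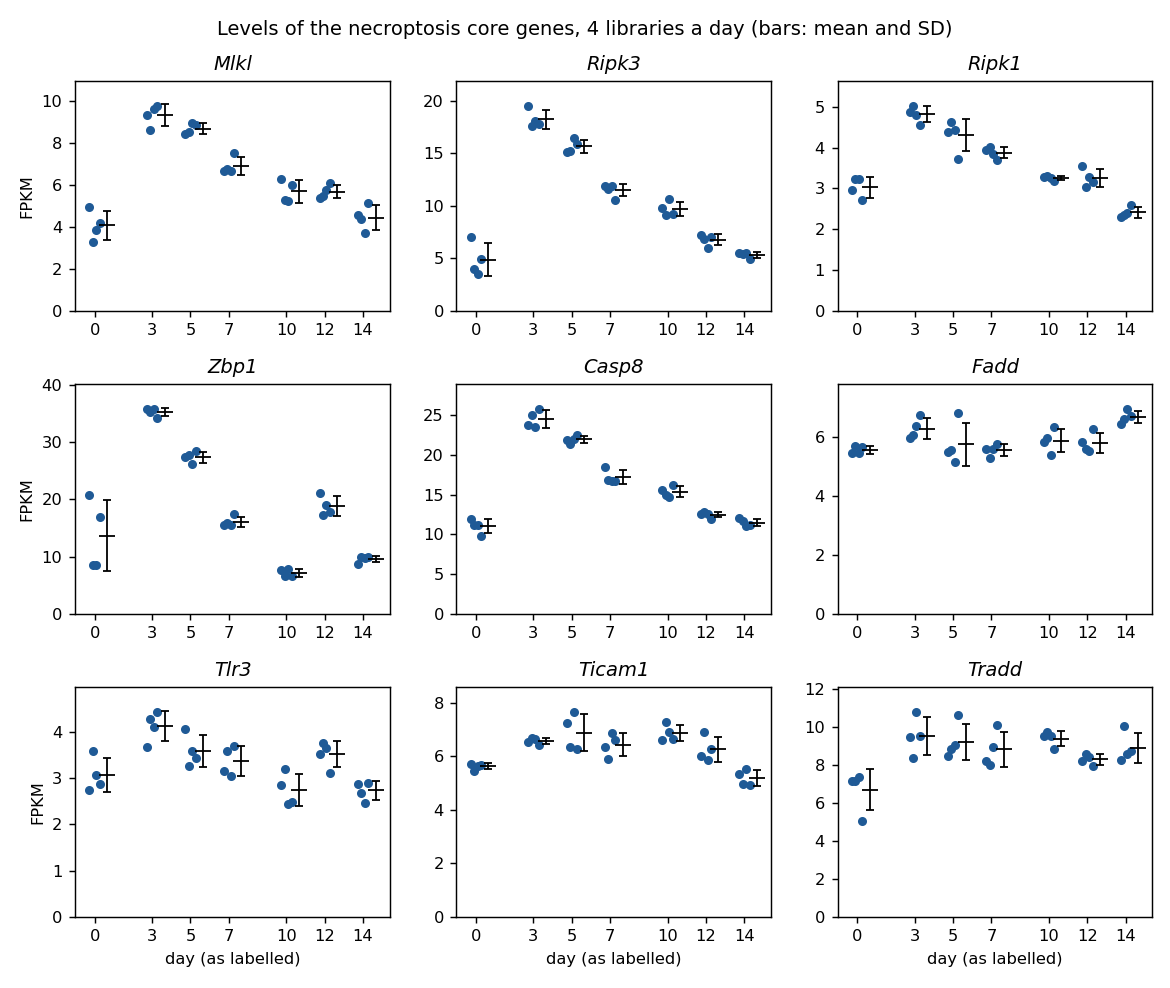
FPKM of each of the 9 genes (vertical axes, each starting at 0) by labelled day, with a point for each of the 4 libraries of a day and a bar for their mean and SD. Mlkl, Ripk3, Ripk1 and Casp8 peak at day 3 and fall from there, Zbp1 falls to 7.13 FPKM at day 10 and is back at 18.8 at day 12, and Fadd stays between 5.14 and 6.95 in every library.

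At day 3 all 9 genes were higher than at day 0, with no overlap between the 4 libraries of each day. The rise was largest for Ripk3 (3.92-fold), Zbp1 (2.69-fold), Mlkl (2.39-fold) and Casp8 (2.31-fold), and smallest for the adaptors Ticam1 (1.22-fold) and Fadd (1.18-fold). Ripk1 (1.65-fold), Tradd (1.48-fold) and Tlr3 (1.4-fold) lay between. By the quasi-likelihood test of edgeR, adjusted over all tested genes by Benjamini-Hochberg, 9 of 9 members rose where 31.8% of all genes did, and 0 fell where 34.8% did (0 also by DESeq2 and limma, and at an unadjusted p under 0.05). The median log2 fold change was 0.73 over the members and -0.03 over all genes. By the limits in the study's methods, an absolute log2 fold change over 1.5 with an unadjusted p under 0.05, only Ripk3 passed, and 18.9% of all genes did. Without Day0 replicate 1 or without Day0 replicate 4, Zbp1 passed as well (1.76 and 1.59), so that 2 members did.

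Mlkl, the effector, had 563, 391, 442 and 452 counts in the 4 libraries of day 0 and 1064, 985, 1100 and 1118 in those of day 3. Every day 3 library was above every day 0 library, and the log2 fold change was 1.26 ± 0.094 (SE, adjusted p = 2.9e-12, edgeR). The counts then went down through 992 to 1042 at day 5, 768 to 879 at day 7, 605 to 714 at day 10 and 633 to 712 at day 12. All 4 libraries of days 5, 7 and 10, and 3 of 4 at day 12, stayed above the day 0 libraries, with log2 fold changes of 1.14, 0.76, 0.43 and 0.34. At day 14, 429 to 577 counts overlapped day 0, and the log2 fold change was -0.00 ± 0.094 (adjusted p = 0.99, edgeR). Mlkl was thus higher than at day 0 from day 3 to day 12 in this test, and a difference was not detectable at day 14.

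Ripk3, the kinase that phosphorylates MLKL, had 539, 314, 268 and 355 counts at day 0 and 1497, 1347, 1389 and 1367 at day 3. The groups lay far apart, with a log2 fold change of 1.97 ± 0.13 (adjusted p = 2.2e-13, edgeR). The counts were 1189 to 1287 at day 5, 829 to 941 at day 7 and 707 to 824 at day 10, each day without overlap with day 0. The log2 fold changes of those days were 1.73, 1.25 and 0.95. At day 12 the 479 to 571 counts overlapped the 539 of Day0 replicate 1, and the log2 fold change of 0.34 passed narrowly (adjusted p = 0.033, edgeR). That call was lost when any of 5 libraries was left out: Day0 replicates 2 or 3, or Day12 replicates 1, 2 or 4 (adjusted p from 0.0563 to 0.153). It was also lost in an edgeR fit of the compared days alone (adjusted p = 0.202). At day 14 the counts were 368 to 431, in the range of day 0. Without Day0 replicate 1, which held the most Ripk3 of its day, the day 14 log2 fold change became 0.33 (adjusted p = 0.0045).

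Ripk1, the kinase and scaffold downstream of TNF receptors, had 1908, 2160, 2100 and 1643 counts at day 0 and 3148, 3249, 3107 and 2949 at day 3. The day 3 libraries were all higher, by 0.73 ± 0.065 on the log2 scale (adjusted p = 1.1e-10, edgeR). At day 5 (2430 to 3056 counts) and day 7 (2435 to 2681) all libraries were still above day 0. At days 10 and 12 the groups overlapped, with log2 fold changes of 0.05 and -0.04. At day 14 its 1480, 1507, 1579 and 1644 counts gave a level under that of day 0 in all 4 libraries after scaling, and the log2 fold change was -0.46 ± 0.065 (adjusted p = 8.0e-07, edgeR).

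Zbp1, the nucleic acid sensor, was the most variable member. Its counts at day 0 were 1756, 740, 722 and 1339, so that replicates 1 and 4 were well above replicates 2 and 3. At day 3 they were 3019, 2972, 3026 and 2893, above every day 0 library, with a log2 fold change of 1.43 ± 0.17 (adjusted p = 3.9e-08, edgeR). They went down to 2241 to 2413 at day 5, 1318 to 1497 at day 7 and 558 to 665 at day 10. The day 10 libraries were under all those of day 0, and the log2 fold change was -0.99 ± 0.18 (adjusted p = 3.4e-05, edgeR). At day 12 the counts were back at 1517 to 1838 in all 4 libraries, and at day 14 they were 734 to 835. Against day 0 the day 14 level was lower by the test (-0.64, adjusted p = 0.0023, edgeR) although only 1 of its 4 libraries lay under all those of day 0. Left out alone, Day0 replicate 1 took that call away (-0.28, adjusted p = 0.0947), and it was also lost by limma on log2(FPKM + 1) (-0.37, adjusted p = 0.0855) and in an edgeR fit of the compared days alone (-0.57, adjusted p = 0.11). At days 7 and 12 Zbp1 did not pass against day 0 (0.23 and 0.32, adjusted p = 0.281 and 0.13). It passed on both days without Day0 replicate 1 (0.51 and 0.62, adjusted p = 0.00402 and 0.000772), and at day 12 also without Day0 replicate 4 (0.45, adjusted p = 0.0401). With all libraries kept, day 12 passed without composition normalization (0.46, adjusted p = 0.0246) and by limma on log2(FPKM + 1) (0.53, adjusted p = 0.0179). With Day0 replicates 1 and 4 both left out, an alternative chosen after seeing the data, the fall at day 10 shrank to -0.30 (adjusted p = 0.00452). The log2 fold changes were then 0.92 at day 7 (adjusted p = 8.6e-11), 1.01 at day 12 (adjusted p = 1.2e-11) and 0.06 at day 14 (adjusted p = 0.595).

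Tlr3, the endosomal sensor of double-stranded RNA, had 544, 734, 608 and 535 counts at day 0 and 725, 846, 813 and 876 at day 3. After scaling all day 3 libraries were above day 0, with a log2 fold change of 0.48 ± 0.096 (adjusted p = 7.1e-05, edgeR). The day 5 change of 0.27 (adjusted p = 0.018) lost its call without Day0 replicate 1 (adjusted p = 0.0522) or Day5 replicate 1 (adjusted p = 0.0866), in the compared days alone (adjusted p = 0.109) and by limma on log2(FPKM + 1) (adjusted p = 0.0718). At day 14 it had 496 to 566 counts and the change was -0.30 (adjusted p = 0.0096), which without Day0 replicate 2 was -0.17 (adjusted p = 0.149). That call was also lost without composition normalization, in the compared days alone and by limma (adjusted p from 0.099 to 0.224). Ticam1, which encodes the adaptor TRIF, moved little. It had 631, 627, 628 and 590 counts at day 0 and 721, 738, 738 and 709 at day 3, a log2 fold change of 0.28 ± 0.072 (adjusted p = 0.0012, edgeR). All its libraries of days 3 to 10 were above day 0, and those of day 14 (536 to 620 counts) were all under it after scaling (-0.24, adjusted p = 0.0053). The day 14 call was lost without Day0 replicate 1 (adjusted p = 0.0927) or 4 (adjusted p = 0.0761), and the day 7 call (0.19, adjusted p = 0.031) without any of Day0 replicates 2 and 3 and Day7 replicates 3 and 4 (adjusted p from 0.0531 to 0.114). Without composition normalization, in the compared days alone and by limma the day 14 call was lost (adjusted p from 0.109 to 0.156), and the day 7 call was lost without a filter on low counts (adjusted p = 0.0911) and in the compared days alone (adjusted p = 0.128).

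Casp8, the protease that restrains necroptosis, had 1417, 1370, 1331 and 1088 counts at day 0 and 2804, 2951, 2781 and 3050 at day 3. The groups were far apart, with a log2 fold change of 1.21 ± 0.056 (adjusted p = 1.3e-16, edgeR). All libraries of day 5 (2578 to 2687 counts), day 7 (2018 to 2215) and day 10 (1752 to 1946) were above day 0, by 1.03, 0.64 and 0.42. At days 12 and 14 the groups overlapped, with log2 fold changes of 0.03 and -0.07. Day 12 passed without composition normalization (0.18, adjusted p = 0.00823) and by limma on log2(FPKM + 1) (0.17, adjusted p = 0.00667). Fadd, the adaptor that recruits caspase 8, was the steadiest member. It had 611, 661, 614 and 596 counts at day 0 and 667, 678, 714 and 757 at day 3, and the log2 fold change of 0.23 ± 0.076 passed (adjusted p = 0.0087, edgeR). From day 5 to day 12 its log2 fold changes lay between -0.08 and 0.09, none of which passed. At day 14 all 4 libraries (719 to 792 counts) were above day 0, yet 0.14 ± 0.076 did not pass (adjusted p = 0.11), and without Day0 replicate 1, 2 or 4 it did (adjusted p from 0.0209 to 0.0415), as it did with DESeq2's size factors, without composition normalization, by DESeq2, in the compared days alone and by limma (adjusted p from 0.00121 to 0.048). Tradd, the adaptor of TNF receptor 1, had 389, 403, 401 and 258 counts at day 0 and 511, 452, 586 and 515 at day 3, a log2 fold change of 0.57 ± 0.11 (adjusted p = 3.2e-05, edgeR). It stayed above all day 0 libraries at days 5, 7, 10 and 14, and its day 14 change was 0.28 (adjusted p = 0.021). Without Day14 replicate 2 that call was lost (0.23, adjusted p = 0.0767). The day 7 call was lost in the compared days alone (0.36, adjusted p = 0.0713), and day 12, which did not pass, did so without composition normalization (0.31, adjusted p = 0.017) and by limma on log2(FPKM + 1) (0.28, adjusted p = 0.0175).

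**Figure D2:**
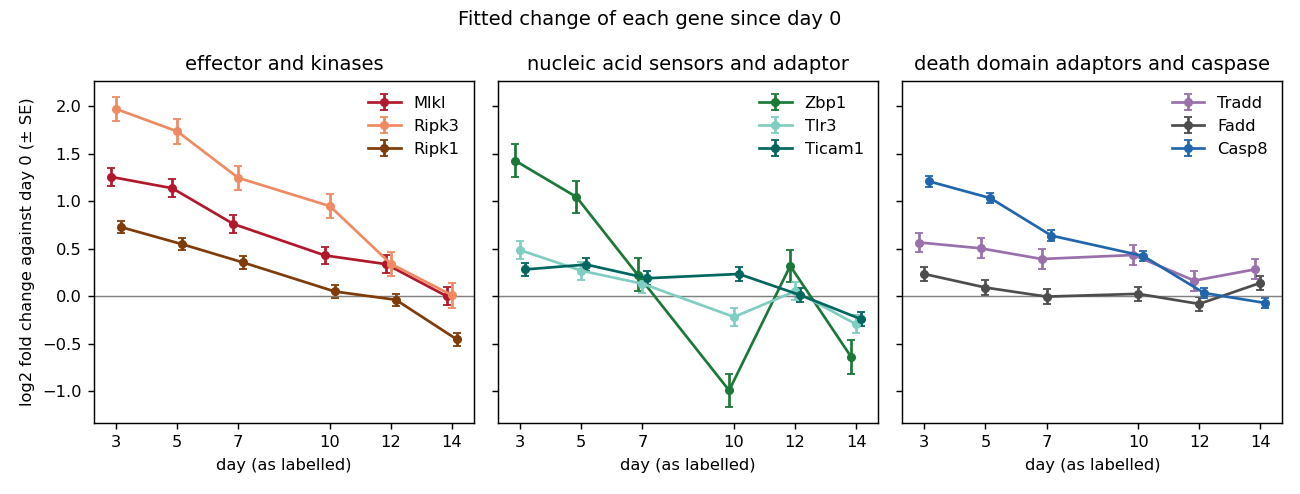
Fitted log2 fold change of each gene against day 0 (vertical axis, bars are the SE of the edgeR fit) by labelled day, in 3 groups of genes by role. Ripk3, Mlkl and Casp8 go down steadily from day 3, from 1.97, 1.26 and 1.21 to near 0 at day 14, while Zbp1 passes from 1.43 at day 3 to -0.99 at day 10 and back to 0.32 at day 12.

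The later days had fewer raised members. At day 5, 8 of 9 members were higher than at day 0 (all but Fadd), where 29.0% of all genes were, and 0 were lower, where 30.6% were (0 also by DESeq2 and limma, and at an unadjusted p under 0.05). At day 7, 6 members were higher (Mlkl, Ripk3, Ripk1, Casp8, Ticam1 and Tradd; 25.6% of all genes) and 0 were lower (24.8%; 0 also by DESeq2 and limma, and at an unadjusted p under 0.05). In the compared days alone 4 were higher at day 7. At day 10, 5 members were higher (the same without Ripk1; 23.5% of all genes) and 1, Zbp1, was lower (26.9%). At day 12, Mlkl and Ripk3 were the 2 higher members (21.7% of all genes) and 0 were lower (25.6%; 0 also by DESeq2 and limma, and at an unadjusted p under 0.05). At day 14, 1 member, Tradd, was higher (28.2% of all genes) and 4 members, Ripk1, Zbp1, Tlr3 and Ticam1, were lower (34.5%). At days 12 and 14 the share of members that were higher was near or below that of all genes. Of these 4 lower members, Ripk1 kept its call when any library was left out. By the study's limits, Ripk3 was the 1 member past them at day 5 (13.9% of all genes), and 0 members passed at day 7 (9.4%), day 10 (9.47%), day 12 (7.39%) and day 14 (14.0%), by edgeR, DESeq2 and limma alike. Without Day0 replicate 1, Tlr3 also passed as lower at day 10 (-0.26, adjusted p = 0.0375), and at day 14 3 members were higher and 2 lower. Lower members at day 10 were also 2 without Day10 replicate 2. At day 12, 5 members were higher without composition normalization (with Zbp1, Casp8 and Tradd) and 5 or 6 by limma, and 1 was higher without Day0 replicate 2 or 3 or without Day12 replicate 1, 2 or 4, and at day 14, 2 were higher without Day0 replicate 2 or 4 and 0 without Day14 replicate 2. Lower members at day 14 numbered 2 without composition normalization and 1 in the compared days alone or by limma on log2(FPKM + 1).

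Between the late and the early wound the genes separated clearly. From day 3 to day 14, 8 of 9 members fell, where 32.8% of all genes did, and 0 rose, where 34.2% did (0 also by DESeq2 and limma, and at an unadjusted p under 0.05). Zbp1 was 4.18-fold lower, Ripk3 3.89-fold, Casp8 2.43-fold, Mlkl 2.39-fold and Ripk1 2.27-fold, and in each all 4 libraries of day 14 were under those of day 3. Tlr3 was 1.72-fold and Ticam1 1.44-fold lower. Fadd changed by -0.09 ± 0.076 (adjusted p = 0.28, edgeR), and Tradd by -0.28 ± 0.1 (adjusted p = 0.019), a call that was lost without Day3 replicate 3 or 4 or Day14 replicate 1 (adjusted p from 0.0582 to 0.145). It was also lost without composition normalization (-0.10, adjusted p = 0.412), by limma on log2(FPKM + 1) (-0.09, adjusted p = 0.509) and without a filter on low counts (-0.23, adjusted p = 0.0805), so that 7 members fell in those fits. Over the 6 wound days together, all 9 members differed by the edgeR F test, as did 85.1% of all genes, and 8 did without composition normalization and by limma.

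The fall was spread over the wound days, and Zbp1 rose again between days 10 and 12. These steps between consecutive days were compared after Zbp1 had been seen to rise again. From day 3 to day 5, 2 members changed (Ripk1 and Casp8, by -0.18 on the log2 scale each; 24.3% of all genes), and 1 without Day5 replicate 2, without composition normalization and by limma, and 0 without a filter on low counts. From day 5 to day 7, 5 members fell (Mlkl, Ripk3, Ripk1, Zbp1 and Casp8; 28.5% of all genes changed), and from day 7 to day 10, 5 members fell (Mlkl, Ripk1, Zbp1, Casp8 and Tlr3; 32.3%). From day 10 to day 12, 6 members changed (39.4% of all genes). Zbp1 rose 2.48-fold (log2 fold change 1.31 ± 0.18, adjusted p = 8.6e-07, edgeR), and Tlr3 rose 1.21-fold (adjusted p = 0.027, edgeR). Ripk3 (-0.61), Casp8 (-0.39), Tradd (-0.27, adjusted p = 0.041, edgeR) and Ticam1 (-0.22) fell. Of these calls, Tradd and Tlr3 lay nearest the threshold. Without Day10 replicate 3 or without Day12 replicate 3 the count was 3. From day 12 to day 14, 7 members changed (45.2% of all genes), of which Fadd rose by 0.22 (adjusted p = 0.019) and the others fell, Zbp1 the most (-0.96, adjusted p = 6.2e-05).

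Set against each other in the same library, Ripk3 rose further than Mlkl at day 3, and Casp8 to Mlkl did not pass the test at day 3 or day 14. The log2 CPM of Casp8 minus that of Mlkl was 1.5 at day 0, 1.44 at day 3 and 1.42 at day 14, and neither step differed beyond the spread of the libraries (exact permutation test, two-sided, adjusted p = 0.79 and 0.97 over 16 ratios). It was not the same on every day: at day 12 it was 1.18 (1.03 to 1.27), under all libraries of day 3 (1.34 to 1.58), day 5 (1.34 to 1.42) and day 10 (1.36 to 1.56), a difference that was not tested. The same difference for Ripk3 went from -0.36 (range -0.72 to -0.06) at day 0 to 0.39 (0.29 to 0.49) at day 3 and back to -0.31 (-0.65 to 0.01) at day 14. Both steps, 0.75 and -0.70, separated all libraries (exact permutation test, raw p = 0.0286, the smallest that 4 against 4 can give, adjusted p = 0.0381). Fadd, Ticam1, Tlr3, Tradd and Ripk1 each lost ground to Mlkl at day 3, by -1.03, -0.98, -0.78, -0.69 and -0.54 (each with raw p = 0.0286, adjusted p = 0.0381, exact permutation test). All of them but Ripk1 gained it again by day 14 (0.48 to 1.17, adjusted p = 0.0381 each, exact permutation test), while Ripk1 to Mlkl changed by 0.08 (adjusted p = 0.62, exact permutation test). Zbp1 to Mlkl did not differ beyond the spread at day 3 (0.28, adjusted p = 0.49, exact permutation test) and fell by 0.80 from day 3 to day 14 (adjusted p = 0.0381).

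Leukocyte transcripts rose more than most of the members and later fell further. Their mean log2 CPM over Ptprc, Cd53, Cd52, Laptm5, Coro1a, Lcp1, Itgb2 and Arhgdib was 6.76 to 7.07 in the day 0 libraries, 8.48 to 8.52 at day 3 and 5.86 to 6.00 at day 14. In the test of all genes these 8 transcripts had a median log2 fold change of 1.76 at day 3. At day 14, 7 of 8 were lower than at day 0 (median -1.11), where 34.5% of all genes were. Relative to this mean, Mlkl was lower at day 3 than at day 0 (-0.34), as was Casp8 (-0.40), and the other lower members were Ripk1 (-0.88), Tradd (-1.03), Tlr3 (-1.12), Ticam1 (-1.33) and Fadd (-1.38). Each of these separated the libraries of the days (exact permutation test, raw p = 0.0286, adjusted p = 0.0367 over 36 ratios). Ripk3 (0.41, adjusted p = 0.14) and Zbp1 (-0.07, adjusted p = 0.68) did not pass the exact permutation test. At day 14 the members stood higher against leukocyte transcripts than at day 0, by 0.52 (Ripk1) to 1.27 (Tradd) with adjusted p = 0.0367 for 8 of 9 and 0.45 for Zbp1 (adjusted p = 0.47, exact permutation test). Against 8 macrophage transcripts instead, the day 3 changes of Mlkl (0.18), Casp8 (0.12) and Zbp1 (0.45) were in the other direction without passing, and Ripk3 rose by 0.93 (adjusted p = 0.0381, exact permutation test).

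Against keratinocyte transcripts the outcome turned on which ones were used. The mean of Krt5, Krt14, Trp63, Cdh1, Dsp, Perp, Sfn and Pkp1 was 8.86 to 9.43 at day 0, 8.48 to 8.81 at day 3 and 9.32 to 9.49 at day 14. Relative to it all 9 members rose at day 3, from 0.81 (Fadd) to 2.60 (Ripk3), with Mlkl at 1.84 (exact permutation test, adjusted p = 0.0367 each). At day 14 Ripk1 (-0.68), Zbp1 (-0.75), Tlr3 (-0.51) and Ticam1 (-0.47) were lower against it than at day 0 (adjusted p = 0.0367 each, exact permutation test) and the other 5 did not pass. The wound edge transcripts Krt6a, Krt6b, Krt16, Krt17 and Sprr1b rose far more, from 3.12 to 5.85 at day 0 to 8.79 to 9.07 at day 3. Relative to them all 9 members fell at day 3, from -2.53 (Ripk3) to -4.32 (Fadd), each with adjusted p = 0.0381 (exact permutation test). At day 14 against these transcripts Tlr3 (-1.60, adjusted p = 0.133) and Ticam1 (-1.56, adjusted p = 0.0735) no longer passed and Ripk3 did (-1.25, adjusted p = 0.0381, exact permutation test). Which cells carried the members was not tested.

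**Figure D3:**
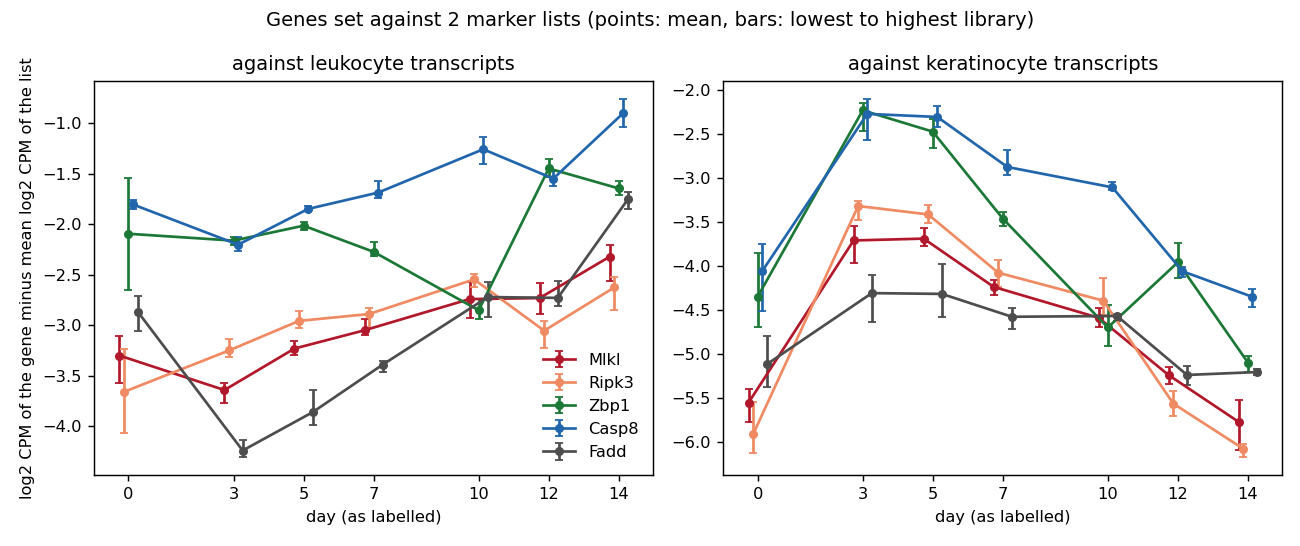
Log2 CPM of Mlkl, Ripk3, Zbp1, Casp8 and Fadd minus the mean log2 CPM of 8 leukocyte transcripts (left) or 8 keratinocyte transcripts (right), by labelled day, with the mean of 4 libraries and bars from the lowest to the highest. Against leukocyte transcripts Fadd drops from -2.86 to -4.24 at day 3 while Ripk3 and Zbp1 do not drop beyond their spread, and all 5 genes stand high against keratinocyte transcripts at days 3 and 5.

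Within days, none of the members had a relation to either mean that passed. Deviations of the 28 libraries from their day means were compared for 18 relations, and none passed (permutation within days, adjusted p from 0.42 to 0.93 for Pearson's r). For Mlkl with leukocyte transcripts r was 0.20 and Spearman's rho -0.08 (permutation p = 0.60 and 0.73), and r was -0.06 without the 2 libraries farthest from the median, Day0 replicates 1 and 4. For Ripk3 with keratinocyte transcripts r was 0.63 and rho 0.46 (permutation p = 0.11 and 0.066), and r stayed at 0.63 without 2 libraries. In the 24 libraries of the wound days alone, Zbp1 with leukocyte transcripts reached r = 0.77 (permutation, adjusted p = 0.023), but Spearman's rho of 0.60 did not pass (permutation, adjusted p = 0.145). Without Day10 replicate 3 and Day12 replicate 1, r was 0.58.

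Zbp1 is itself known as an interferon-stimulated gene, and other such transcripts were also lower at day 10 and higher again at day 12, as were transcripts of several cell types. The mean log2 CPM of 10 other such transcripts (Isg15, Ifit1, Ifit3, Irf7, Oas1a, Oasl2, Rsad2, Usp18, Bst2 and Cxcl10) was 5.16, 4.03, 4.06 and 4.89 in day 0 replicates 1 to 4. Replicates 1 and 4 were thus high and replicates 2 and 3 low, the same libraries as for Zbp1. Tissue transcripts split these libraries too. In day 0 replicates 1 to 4 the mean log2 CPM of wound edge keratinocyte transcripts was 5.85, 3.12, 3.52 and 4.84, that of general keratinocyte transcripts 9.39, 8.86, 8.92 and 9.43, and that of skeletal muscle transcripts 11.94, 11.27, 11.30 and 12.03. Fibroblast transcripts went the other way, at 9.83, 10.77, 10.73 and 9.28. At day 3 the mean of the interferon-stimulated transcripts was 5.74 to 5.89, at day 10 it was 4.05 to 4.22, at day 12 it was 5.13 to 5.30 and at day 14 it was 4.85 to 5.06. Zbp1 and this mean did not run together throughout. At day 14 Zbp1 was at 4.28, under its day 0 mean of 4.804. The list was at 4.967, above its day 0 mean of 4.535. From day 12 to day 14, 5 of the 10 fell and 1 rose (45.2% of all genes changed), and Zbp1 changed by -0.96. From day 3 to day 5, 0 fell and 1 rose (24.3%), while Zbp1 went from 6.34 to 5.96 without passing (adjusted p = 0.10, edgeR). Of the 10 transcripts, 9 rose by day 3 (31.8% of all genes did), with a median log2 fold change of 1.28. Ifit3 did not pass. Against day 0, 5 were lower at day 10 (26.9% of all genes) and 6 were higher at day 12 (21.7%). Day 0 replicates 2 and 3 alone (4.03 and 4.06) lay close to day 10 (4.05 to 4.22). Oas1a, which makes 2-5A from double-stranded RNA, had the largest rise at day 3, from 422 to 891 counts to at least 2158 (log2 fold change 1.93 ± 0.15, adjusted p = 1.0e-11, edgeR). From day 7 to day 10, 9 of the 10 fell, where 32.3% of all genes changed in either direction. From day 10 to day 12, 9 of the 10 rose, where 39.4% of all genes changed. In that last step Ifit1 rose by 1.80, Usp18 by 1.28 and Isg15 by 1.22 on the log2 scale, next to 1.31 for Zbp1. Transcripts of some cell types moved the same way over these days. Mean log2 CPM at days 7, 10 and 12 was 2.64, 1.64 and 2.22 for T and NK cell transcripts (6 of 8 rose from day 10 to day 12), and 6.72, 5.83 and 6.48 for dendritic and Langerhans cell transcripts (5 of 6 rose and 1 fell). It was 6.36, 5.69 and 6.47 for mast cell transcripts (5 of 5 rose) and 7.32, 4.32 and 8.98 for hair follicle transcripts (6 of 6 rose). Suprabasal keratinocyte transcripts stood at 8.36, 7.83 and 8.49 (4 of 6 rose), and of 8 general keratinocyte transcripts 6 rose and 1 fell from day 10 to day 12. Several other lists did not share this rise from day 10 to day 12. None of the 8 general leukocyte transcripts rose and 3 fell, all 8 neutrophil transcripts fell, 5 of 6 endothelial transcripts fell and none rose, and of 8 macrophage transcripts 3 rose and 2 fell. The part of these cell types in the course of Zbp1 and of the interferon-stimulated transcripts was not tested.

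**Figure D4:**
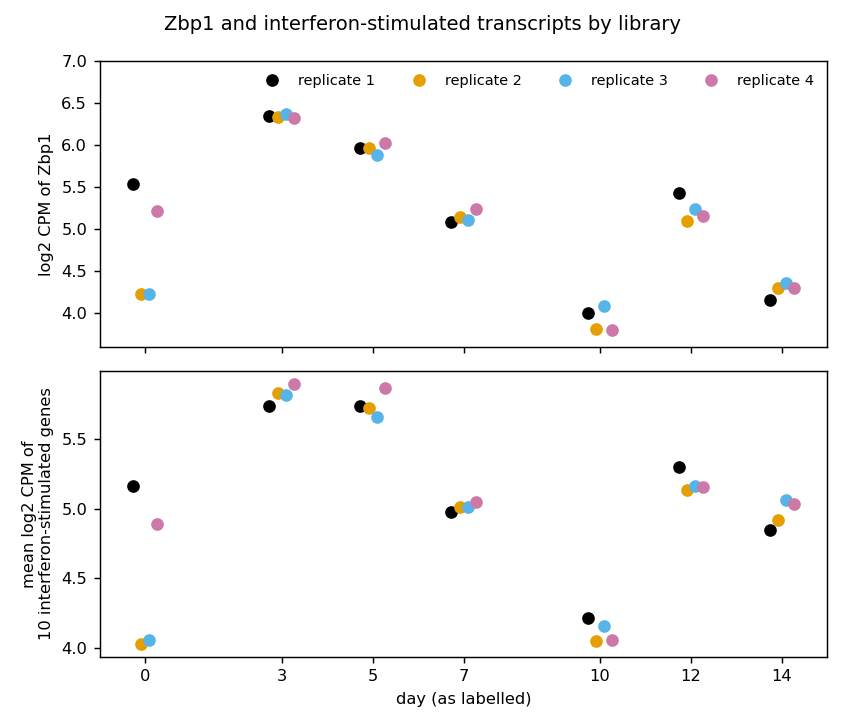
Log2 CPM of Zbp1 (upper panel) and the mean log2 CPM of 10 interferon-stimulated transcripts (lower panel) in each of the 28 libraries, by labelled day and coloured by replicate number. Both are split at day 0, with replicates 1 and 4 above replicates 2 and 3. Both have their lowest day mean at day 10 and are raised again at day 12. They part by day 14. The mean of Zbp1 (4.28) is then under its day 0 mean (4.804), and that of the list (4.967) is above its own (4.535).

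The genes around the core were given by lists of their roles, and most inputs rose with it at day 3. Of 8 ligands and death receptors 5 rose and 1 fell. Tnf, the best known trigger, rose from 66 to 101 counts to at least 555 (log2 fold change 3.10 ± 0.16, adjusted p = 2.2e-15, edgeR), and Tnfsf10, which encodes the ligand TRAIL, fell by 0.72. All 11 genes of interferon input rose, led by the receptor chain Ifnar2 (1.45), and so did 5 of 6 genes of Toll-like receptor input, led by the lipopolysaccharide co-receptor Cd14 (4.06). These lists had medians of 1.00, 0.64 and 1.08 on the log2 scale, beside -0.03 over all genes. At day 3, 31.8% of all genes rose and 34.8% fell.

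The ubiquitin and kinase checkpoints hold RIPK1 in its survival form. At day 3 the median log2 fold change was 0.07 for the ubiquitin complex, 0.32 for the checkpoint kinases and 0.42 for the deubiquitinases and brakes, and lists were not tested against each other. Over all genes, 31.8% rose and 34.8% fell. Of 8 genes of the ubiquitin complex 3 rose, with Birc3 (cIAP2) at 1.16, and 2 fell, with Traf5 at -0.87. Of 9 checkpoint kinase genes 6 rose and 1 fell, with Ikbke (IKK epsilon) at 1.22 ± 0.064 (adjusted p = 2.1e-15, edgeR). Of 6 deubiquitinases and brakes 5 rose, led by Tnfaip3 (A20, 0.92), and the inhibitor Cflar (cFLIP), which dimerises with caspase 8, rose by 0.51. Of 12 genes of the MLKL membrane step 7 rose and 3 fell. Itpk1, an inositol phosphate kinase whose products enable MLKL, rose by 1.07, and Axl, a receptor kinase, fell by 0.61.

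At day 14 more of the surrounding genes were lower than higher against day 0 in each list, as over all genes, of which 28.2% were higher and 34.5% lower. Of the 11 interferon input genes 1 was higher and 7 lower, of the 6 Toll-like input genes 1 and 5, of the 6 deubiquitinases and brakes 0 and 5, and of the 12 membrane step genes 3 and 8. Compared with day 3, all 11 interferon input genes and all 6 deubiquitinases and brakes were lower, as were 8 of the 9 members. Over all genes, 32.8% were lower and 34.2% higher. Of the 6 Toll-like input genes 5 were lower and 1 higher, and of the 9 checkpoint kinase genes 7 and 1. Lower were also 5 of 8 genes of the ubiquitin complex, 6 of 8 ligands and death receptors and 9 of 12 membrane step genes, and 0 of these were higher.

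Over all 28 libraries, each member had its own nearest transcripts among 12317 genes with a mean of at least 5 CPM. The nearest, by Pearson's r of log2 CPM as a description over libraries that share the time course, were Lilrb4a, Mmp8 and A530064D06Rik for Mlkl (0.97 each). Those for Ripk3 were Plaur, Timp1 and Cd300lb (0.99 each), those for Ripk1 were Nckap1l, P2rx4 and Plekho2 (0.98 to 0.99), and those for Casp8 were Sdcbp, Ctsb and Ppbp (0.98 to 0.99). Zbp1 was nearest to Oas3, Slfn1 and Ms4a4c (0.97 to 0.98). Of these, Mmp8 encodes a neutrophil collagenase, Plaur the urokinase receptor, Nckap1l a haematopoietic actin regulator and Oas3 an interferon-induced enzyme. Tlr3 (Il1rap, Gvin3 and Rps6ka3) and Ticam1 (Scamp5, Angpt2 and Zbtb34) had looser neighbours with r of 0.90 to 0.91. Tradd was nearest to Pdia3 and Cmpk1 (0.86 to 0.87), and Fadd to Gfer, Edf1 and Mrpl17 (0.84 each), the lowest of the 9.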

How the data were processed

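Skin of C57BL/6J mice, from the wound site on the wound days, was sequenced in 28 libraries, grouped by the day in the labels. The authors deposited raw counts per gene symbol and FPKM values, each equal to the count divided by a fixed gene length and the library total. The submitters' processing notes name fastp, R 3.2.0 and the mm10 build, and the aligner, counting tool, annotation and strandedness are not given in the sources used here. All columns were matched to a sample.

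The counts were fitted with edgeR 4.0.16 in R 4.3.3 (TMM, filterByExpr on the 7 days, glmQLFit, glmQLFTest, two-sided) in a single fit of all libraries with 21 residual degrees of freedom. P-values were adjusted by Benjamini-Hochberg over 18107 genes, and genes were called at an adjusted p under 0.05. Ratios used log2 CPM (TMM, prior count 2) and exact permutation tests, correlations 100000 permutations within days. Alternatives were other scalings, no filter, DESeq2 1.42.0, limma 3.58.1 on log2(FPKM + 1) or log2(FPKM + 0.1), a replicate block, other marker lists and each library left out. For simulated counts of day 3 against day 0, with 196 of 17548 genes changed 2-fold, edgeR recovered 150 with 6 false calls. The simulation gave every gene the same dispersion and changed few genes. Its rates need not hold for comparisons with day 0, whose libraries varied more.

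The members, gene lists and tests were chosen with earlier results of these data known. Besides the 9 members, the genes named were those of the leukocyte and keratinocyte lists. For each role list, and for the interferon-stimulated list, they were the largest increase and decrease at day 3 that passed without overlap between the libraries. For each member, they were its 3 nearest genes over all libraries (2 for Tradd), and for other cell type lists the most abundant gene. Genes named beyond this rule (Sfn among the keratinocyte list, Cflar, Ifit1, Usp18, Isg15, Ifit3 and the annotated neighbours of members) were picked out after values were seen. Some genes of these lists are not reported here, and the lists were counted without them. Depth limits precision: intervals and p-values cover these libraries only, and at least 258 counts per library lay behind every member.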

Additional observations from a re-analysis of the deposited data

Results flagged for a closer look

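In 5 of 77 groups of 4 libraries a single library stood apart from the other 3 by Dixon's test of the gap against the range, where chance gives about 4. On the log2 CPM scale, Ripk3 was at 4.39 in Day7 replicate 4 and at 4.56 to 4.59 in the other libraries of that day. Fadd was at 4.29 in Day14 replicate 3, against 4.13 to 4.15. Tradd was at 2.85 in Day0 replicate 4, against 3.36 to 3.38, and this library lowers the day 0 level that the changes of Tradd against day 0 are measured from. The mean of the leukocyte transcripts was 6.89 in Day10 replicate 3, against 6.73 to 6.75. The mean of the keratinocyte transcripts was 8.81 in Day3 replicate 1, against 8.48 to 8.51.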

How the results depend on the processing

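Of 621 log2 fold changes recomputed under other settings, 539 kept their direction and side of the threshold, as did 459 of 504 with a library left out. All 416 ratios with a library left out moved by less than 1 SD, and 9 of 9 members were higher at day 3 in every fit. Calls moved mostly at days 12 and 14. They also moved at days 5 and 10 for Tlr3 and at day 7 for Zbp1, Ticam1 and Tradd. Higher members at day 12 numbered 5 without composition normalization and by limma on log2(FPKM + 1) or log2(FPKM + 0.1), 6 with a mean FPKM of at least 1, and 1 in a fit of the compared days alone. At day 14, 2 were higher with DESeq2's size factors, without composition normalization, by DESeq2, in the compared days alone and by limma. Lower members at day 14 numbered 2 without composition normalization or with a mean FPKM of at least 1, and 1 in the compared days alone or by limma. From day 3 to day 5, 1 member changed without composition normalization and by limma, and 0 without a filter on low counts. Without Day0 replicates 1 and 4, 2 members passed the study's limits at days 3 and 5 and 1 at day 7, and 2 were lower at day 10. With Day0 replicates 1 and 4 left out, the called decrease of Zbp1 at day 14 was lost and turned direction (0.0551). By edgeR this setting also lost the calls of Tlr3 at day 5 (adjusted p = 0.215), Ticam1 at day 7 (adjusted p = 0.0527) and Tradd at day 14 (adjusted p = 0.172). It added calls for Zbp1 at days 7 and 12, Tlr3 as lower at day 10 (adjusted p = 0.0134) and Ripk3 as higher at day 14 (0.4, adjusted p = 0.000889). Changes that had not passed turned direction with Day0 replicates 1 and 4 left out (Fadd at day 7, 0.00026; Ripk1 at day 10, -0.0361; Tlr3 at day 12, -0.0561; Mlkl at day 14, 0.193), without composition normalization (Ripk1 0.106 and Fadd 0.0626 at day 12; Mlkl 0.128 and Casp8 0.0561 at day 14; Fadd 0.0892 from day 3 to 14) and by limma (Ripk1 0.081 and 0.104, Fadd 0.0522 and 0.0601 at day 12; Mlkl 0.106 and 0.13, Casp8 0.0542 and 0.0588 at day 14; Fadd 0.078 and 0.0889 from day 3 to 14). Mlkl at day 14 was 0.0323 with DESeq2's size factors, 0.0355 without a filter, 0.0327 by DESeq2 and 0.0694 in the compared days alone, where Casp8 was 0.000171. Without composition normalization the median of all genes from day 3 to 14 was 0.22 in place of 0.04. FPKM are divided by the library total, so limma on FPKM also lacked composition normalization and is not a separate check of it. The cause of these shifts was not tested.

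With 1 library left out, members past the study's limits at day 3 numbered 1 to 2, lower members at day 10 1 to 2 and at day 14 2 to 4, higher members at day 12 1 to 3 and at day 14 0 to 3, and members that changed 1 to 3 from day 3 to 5 and 3 to 5 from day 10 to 12 (lowest without Day10 replicate 3 or Day12 replicate 3), against 6 with all libraries. Log2 fold changes that turned direction ranged for Fadd from -0.00663 to 0.159 at day 5, -0.0171 to 0.0159 at day 7 and -0.00888 to 0.0551 at day 10, for Casp8 from -0.00282 to 0.0972 at day 12 and -0.0964 to 0.0535 at day 14, for Ticam1 from -0.0334 to 0.0474 at day 12, for Mlkl from -0.0672 to 0.187 and for Ripk3 from -0.0755 to 0.329 at day 14.

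With macrophage transcripts the day 3 ratios were 0.177 for Mlkl, 0.929 for Ripk3, 0.452 for Zbp1 and 0.121 for Casp8, and that of Zbp1 at day 14 was 1.46. With wound edge transcripts they were -3.28 for Mlkl, -2.53 for Ripk3, -3.82 for Ripk1, -3.01 for Zbp1, -3.34 for Casp8, -4.32 for Fadd, -4.06 for Tlr3, -4.27 for Ticam1 and -3.98 for Tradd, and at day 14 -1.25 for Ripk3, -1.6 for Tlr3, -1.56 for Ticam1 and -1.02 for Tradd, where Tlr3 and Ticam1 lost their calls and Ripk3 gained one. In the wound days alone, r with leukocyte transcripts was -0.132 for Mlkl, 0.766 for Zbp1, -0.0738 for Casp8 and 0.0779 for Tlr3, and with keratinocyte transcripts -0.0618 for Mlkl, 0.00724 for Ripk1 and -0.17 for Zbp1.

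The labels give each day the same replicate numbers. Same-numbered libraries did not deviate together (median r -0.00091 over 84 pairs, and 8 of 28 libraries correlated best with their own number), so the numbers do not pair the libraries. With a replicate block, 9 members were higher at day 3 and 4 lower at day 14, and no other count of members changed.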
